A study of Mus musculus with 4 samples.

Results

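The receptor activity-modifying proteins (RAMP) and the adrenomedullin system were examined in fibroblasts that express *Xist* from an autosome, through 7 genes chosen by name: *Ramp1*, *Ramp2*, *Ramp3*, *Calcrl*, *Calcr*, *Adm* and *Ackr3*. All 7 were among the 23924 genes of the expression matrix. The set was chosen from these same data, since the higher *Ramp3* level in transgenic cells was already known from this contrast when the set was drawn up, so the difference between the genotypes in the 7 genes is described here and not tested.

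RAMPs are small proteins that cross the membrane a single time and travel to the cell surface with a G protein-coupled receptor, whose ligand choice they set. With CALCRL (the calcitonin receptor-like receptor), RAMP1 makes the receptor for calcitonin gene-related peptide (CGRP), while RAMP2 or RAMP3 makes receptors for the peptide adrenomedullin, encoded by *Adm*; with CALCR, the calcitonin receptor, RAMPs make receptors for amylin. These receptors act mainly through the G protein Gs, adenylyl cyclase, cAMP and protein kinase A, and adrenomedullin is best known from blood and lymphatic vessels. ACKR3 is an atypical chemokine receptor that takes up CXCL12, CXCL11 and adrenomedullin.

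Tail tip fibroblasts (TTF) came from male mice of the line Tg2087. Hemizygous Tg2087/+ cells (TG, 2 libraries) carry the transgene TgBAC8, which spans *Xist* and neighbouring non-coding genes of the X-inactivation center, in a single autosomal locus; cells of their +/+ littermates (WT, 2 libraries) do not. Cells of both genotypes had been immortalized with SV40 large T and were tetraploid, and the age of the mice was not given in the sources used here. The sources used here likewise do not say if the replicate libraries stem from different animals or cultures, so the spread between them may be technical, and a single transgenic line cannot be told apart from other differences between the cultures.

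Levels are FPKM, the fragments of a gene scaled to its length and to the size of the library, as computed by the authors, and values of a genotype are given in the order of its libraries 1 and 2. The whole reads behind these values were worked out from their ratios between libraries. The library totals that fit them, called depth here, ran from 9465712 reads in WT 1 to 14639946 in WT 2. Reads on the listed genes made up 99.9% (WT 2) to 100.07% (TG 1) of these totals. Depth here thus means reads assigned to genes and not all reads sequenced. The share above 100% in TG 1 means that some worked-out reads are too high. The genotypes were compared with limma on the log2(FPKM + 0.5) scale over 11524 genes, those whose mean reached 0.5 FPKM. A gene was called up-regulated or down-regulated where its Benjamini-Hochberg adjusted p was under 0.01 and its log2 fold change was 1 or more in either direction. *Xist* served as the check of the labels, with 0 and 0.108 FPKM in WT and 2.31 and 2.28 in TG (log2 fold change 2.34, SE 0.40, limma adjusted p = 0.0112). It thus passed the threshold on the fold change but narrowly missed that on the adjusted p, and was not called. The fibroblast markers *Vim*, *Col1a1*, *Thy1* and *Fn1* were abundant in all 4 libraries (lowest value 267 FPKM, *Fn1* in TG 1), whereas *Lum* was listed at 0 in each and *Dcn* reached 0.878 FPKM at most. Of the 8 fibroblast markers tested, 6 had both TG values below both WT values, as 20.3% of all genes did. The other 2, *Vim* and *Pdgfra*, had them above, as 30.2% of all genes did. None was called by limma, while a fit of the whole reads by voom called 1 lower, as it did 1.31% of all genes. The median log2 fold change was -0.49, with *Col1a1* at -0.82 (SE 0.20), *Fn1* at -0.87 (SE 0.25) and *Pdgfrb* at -0.96 (SE 0.18). Markers of blood endothelium, where adrenomedullin receptors are best known, were nearly absent: *Tie1*, *Emcn* and *Cldn5* were at 0 in every library, *Cdh5* had 1 read in all, *Pecam1* had 12 reads in WT 1 alone, and the list's sum of 9.02 to 15.2 FPKM came almost wholly from *Egfl7*. *Esam* had 11 reads in WT 1 alone, and *Kdr* had 12 and 4 reads in WT and 8 and 3 in TG. Of the lymphatic markers, *Lyve1* and *Reln* were at 0 and *Prox1* was at 0.0611 FPKM or less. The remaining one, *Flt4*, was at 1.10 and 1.34 FPKM in WT and 2.49 and 2.76 in TG (0.87, SE 0.31). It was not called, and both TG values lay above both WT values, as in 30.2% of all genes.

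The 3 RAMP genes differed in their pattern. *Ramp3* was at 0 and 0.510 FPKM in WT and 10.87 and 11.05 in TG. Both TG libraries were thus far above both WT libraries and nearly equal to each other, with means of 0.255 ± 0.360 FPKM in WT and 10.96 ± 0.121 in TG (SD, n = 2 each). In TG 1 and TG 2 the level was above that of 63.3% and 64.4% of the 15530 genes detected in any library, which places it in the middle range of these cells. The reads behind these values numbered 0 and 8 in WT and 139 and 131 in TG. Over the depth of both genotypes this was a ratio of 35.4, with an exact 95% interval of 17.7 to 82.8 that covers counting error only. The 0 reads of WT 1 allow a level of up to 0.296 FPKM, and the WT 2 level would have given about 5.17 reads at the depth of WT 1. The log2 fold change was 4.01 (SE 0.36) on the log2(FPKM + 0.5) scale, rank 3 from the top among the 11524 genes tested. It passed both thresholds for an up-regulated gene, as 0.607% of the genes tested did, and no member passed them for a down-regulated gene, against 0.469% of all genes. Both values stand here for orientation, because this contrast chose the set. *Ramp3* entered the fit through its TG level, since its WT mean lay under the minimum of 0.5 FPKM. Without WT 1 its log2 fold change was 3.50 (SE 0.30) and no longer past the threshold on the adjusted p in a fit that called 1 gene in all. In such bulk libraries, more cells with *Ramp3* and more *Ramp3* RNA per cell cannot be told apart.

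**Figure D1:**
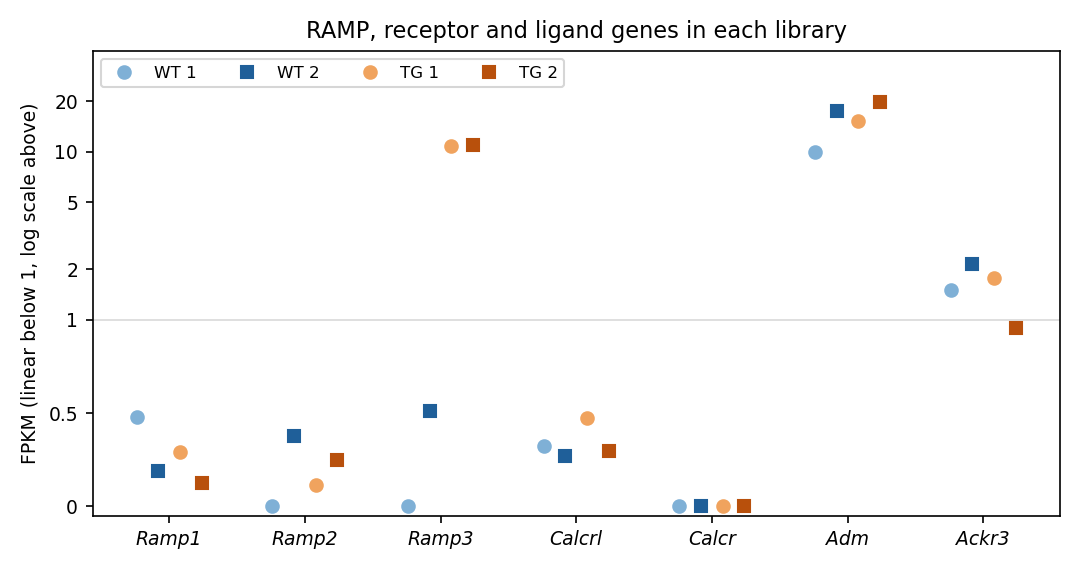
FPKM of the 7 genes in each of the 4 libraries (1 point per library), on an axis that is linear below 1 and logarithmic above. *Ramp3* stands near 11 FPKM in both TG libraries and at 0.510 or less in WT, while the other genes overlap between the genotypes.

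*Ramp1*, the partner for CGRP receptors, was low everywhere, at 0.478 and 0.190 FPKM in WT and 0.292 and 0.126 in TG. *Ramp2*, the other adrenomedullin partner and the usual one in vessels, was at 0 and 0.378 FPKM in WT and 0.116 and 0.250 in TG. The genotypes overlapped for both genes. These levels rest on 4 to 13 reads of *Ramp1* and 0 to 4 reads of *Ramp2* per library, so only a large difference between the genotypes could have been detected at this depth. The exact 95% counting intervals for *Ramp1* ran from 0.255 to 0.817 FPKM in WT 1 and from 0.0343 to 0.322 in TG 2, and so overlapped even between its highest and lowest libraries. Both genes stayed under the minimum for the test. In a fit of all 15530 detected genes their log2 fold changes were -0.22 (SE 0.26) for *Ramp1* and 0.04 (SE 0.31) for *Ramp2*.

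The make-up of the RAMP transcripts differed between libraries. *Ramp1* made up 100% of the summed RAMP FPKM in WT 1, where it was the only RAMP gene with reads. In WT 2 the shares were 17.6% for *Ramp1*, 35.1% for *Ramp2* and 47.3% for *Ramp3*, from 20 reads in all. *Ramp3* held 96.4% in TG 1 and 96.7% in TG 2, from 150 and 137 RAMP reads. The WT shares thus rest on 13 and 20 reads and do not resemble each other, whereas those of the TG libraries do. On the log2(FPKM + 0.5) scale, *Ramp3* minus *Ramp1* was -0.97 and 0.55 in WT and 3.84 and 4.21 in TG.

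**Figure D2:**
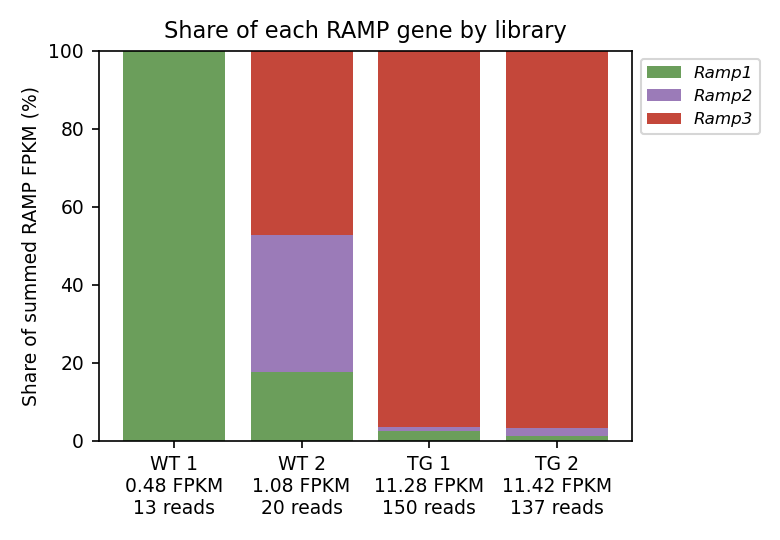
Share of each RAMP gene in the summed FPKM of *Ramp1*, *Ramp2* and *Ramp3*, as percent, by library, with the sum and the reads under each bar. *Ramp3* makes up 96.4% and 96.7% in TG 1 and TG 2, and the sum is 0.478 and 1.08 FPKM in WT and 11.3 and 11.4 in TG.

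Transcripts of the 2 receptors of the set that pair with RAMPs were scarce or absent. *Calcrl* was at 0.322 and 0.268 FPKM in WT and 0.475 and 0.296 in TG, from 14, 18, 26 and 15 reads. The genotypes overlapped, with TG 2 between both WT libraries, and the log2 fold change in the fit of all detected genes was 0.15 (SE 0.22). Between 22.3% and 25.3% of the detected genes lay below *Calcrl* in each library. *Calcr* had 0 reads in all 4 libraries. The ratio of *Ramp3* to *Calcrl* in FPKM was 0 and 1.90 in WT and 22.9 and 37.4 in TG. These are transcript levels; surface receptors were not measured.

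The ligand gene *Adm* was the most abundant of the 7 in WT and TG alike. It stood at 9.93 and 17.4 FPKM in WT and 15.4 and 19.7 in TG, or 117, 318, 228 and 272 reads. TG 1 lay between the WT libraries, and the genotype means of 13.7 ± 5.32 and 17.6 ± 3.10 FPKM (SD, n = 2 each) differed by less than the spread between the WT libraries. The log2 fold change was 0.39 (SE 0.27), and it was -0.0022 without WT 1 and 0.78 without WT 2, so that a single WT library decided its size. *Ackr3*, the scavenging receptor, was at 1.51 and 2.14 FPKM in WT and 1.78 and 0.958 in TG, or 31, 68, 46 and 23 reads. TG 1 again lay between the WT libraries, and the log2 fold change was -0.34 (SE 0.36), past neither threshold, with -0.66 without TG 1 and -0.016 without TG 2. Of the 7 genes, 3 (*Ramp3*, *Adm* and *Ackr3*) thus passed the filter on low values, with *Ramp3* up-regulated.

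The promoters of the RAMP gene that differed, of a RAMP gene that was low throughout and of the ligand gene are shown as the 250 bases before the transcription start, 5′ to 3′, from RefSeq on GRCm38.p6, where 6 of the 7 genes had an entry. Capitals mark every match, on either strand, to the GC box, read as GGGCGG, or to the TATA box, read as TATAA. The core of the hypoxia response element, ACGTG, and that of the cAMP response element, TGACG, were searched as well, with no match in these windows:
Ramp3, chr11:6658283-6658532, + strand: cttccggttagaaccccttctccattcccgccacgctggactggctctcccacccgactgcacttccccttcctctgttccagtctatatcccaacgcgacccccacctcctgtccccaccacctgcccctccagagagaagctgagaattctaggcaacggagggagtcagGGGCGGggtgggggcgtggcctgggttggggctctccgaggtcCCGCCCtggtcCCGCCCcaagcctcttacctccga
Ramp1, chr1:91179572-91179821, + strand: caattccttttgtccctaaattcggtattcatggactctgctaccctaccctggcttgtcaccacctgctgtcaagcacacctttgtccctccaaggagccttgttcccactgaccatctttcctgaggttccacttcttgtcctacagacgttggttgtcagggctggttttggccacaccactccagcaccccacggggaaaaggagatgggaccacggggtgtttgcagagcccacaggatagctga
Adm, chr7:110627407-110627656, + strand: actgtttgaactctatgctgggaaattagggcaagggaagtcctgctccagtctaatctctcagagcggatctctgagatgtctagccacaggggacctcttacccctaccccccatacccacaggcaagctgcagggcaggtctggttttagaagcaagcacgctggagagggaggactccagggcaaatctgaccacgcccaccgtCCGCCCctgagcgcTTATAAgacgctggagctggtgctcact
The *Ramp3* window held 3 GC boxes, a motif found in 32.7% of 32851 promoter windows of this length, and 13 CpG dinucleotides against a median of 6. The *Ramp1* window held no match to any of the 4 motifs and 4 CpG. The *Adm* window held 1 GC box and, just before the start, the TATA box letters on both strands in overlap, and 22.8% of all windows held them. The hypoxia and the cAMP element cores were found in 16.6% and 17.8% of all windows. Of the windows not shown, both of *Calcr* held the cAMP element core, with 2 matches and 1. Bases farther than 250 before the start were not searched, so elements there would have been missed. Binding and methylation were not measured here.

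*Ramp3* lies on chr11:6658521-6677475 (GRCm38, + strand), across a processed pseudogene on the other strand, *Gm11978*, which was listed but stayed under the minimum for the test. Within 1 Mb, 22 genes were tested, all but *Igfbp3* on the centromeric side. *Igfbp3* lies 0.529 Mb distal, at chr11:7206086-7213923 on the - strand, encodes a carrier of insulin-like growth factors, and was the only up-regulated gene of the 22. It was at 0 and 1.13 FPKM in WT and 18.0 and 13.6 in TG, and its log2 fold change was 4.16 (SE 0.46, limma adjusted p = 0.0011), the next above that of *Ramp3* among all genes. So *Ramp3* and *Igfbp3*, ranks 3 and 2 by log2 fold change, are neighbours with no tested gene between them. The genes listed between them were *Adcy1*, an adenylyl cyclase, with 4 and 10 reads in WT and 14 and 4 in TG, and *Igfbp1* and *Gm11981* at 0 reads in all libraries. On the other side the nearest tested gene, *Tbrg4*, 0.0325 Mb away, had a log2 fold change of 0.12 (SE 0.19). The median of the 22 neighbours was 0.30, against 0.071 over all genes tested, with 17 above 0 and 5 below. Since the median over all genes was itself above 0, most of all genes lay above 0 too. Within 3 Mb the median was 0.14, with 36 genes above 0 and 20 below. No other gene was up-regulated or down-regulated up to 3 Mb from *Ramp3*, among 56 tested.

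**Figure D3:**
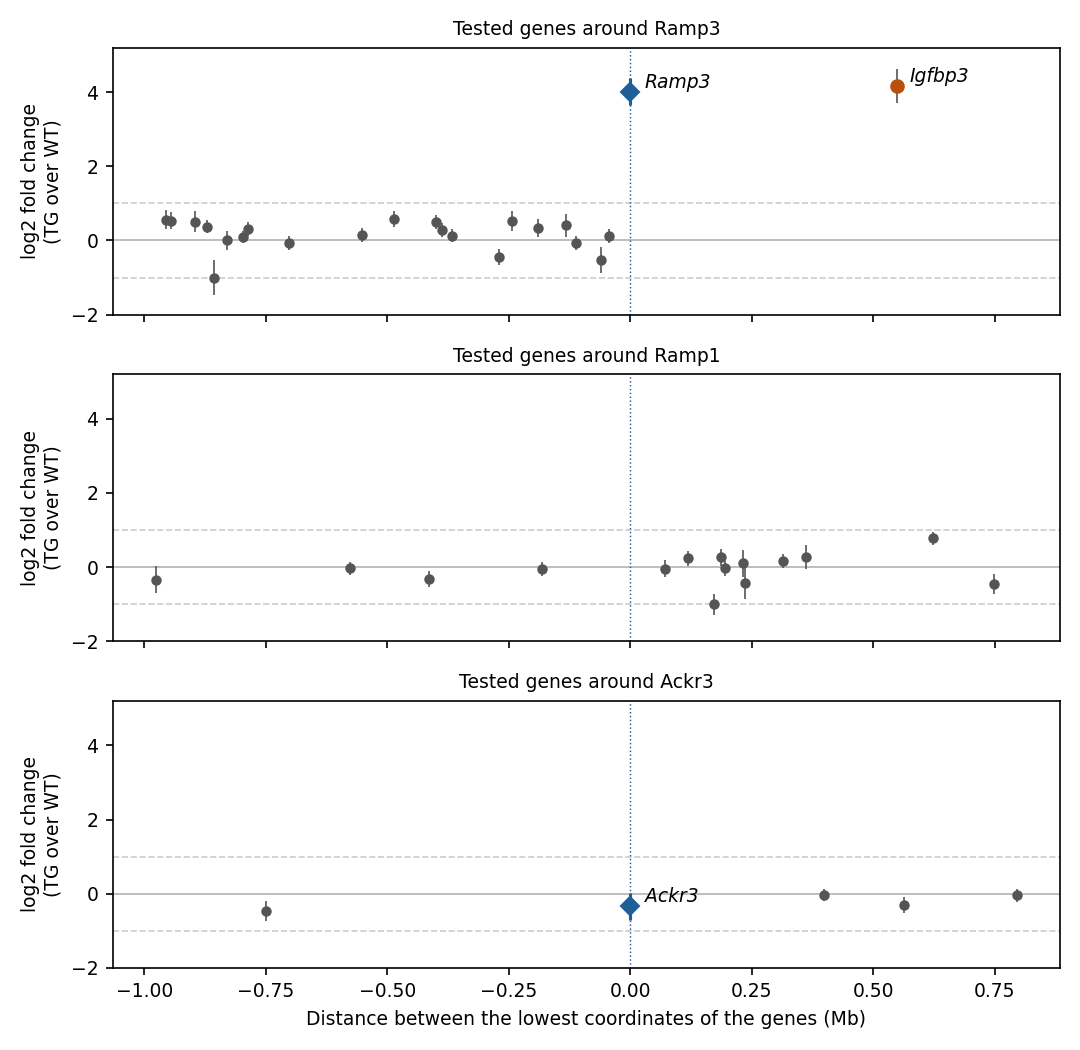
Log2 fold change (TG over WT, limma) of the tested genes within 1 Mb of *Ramp3*, *Ramp1* and *Ackr3*, against the distance between the lowest coordinates of the genes in Mb, with bars for the standard error, diamonds for the member itself where it was tested and orange for genes past both thresholds. *Ramp3* (4.01) and *Igfbp3* (4.16) stand above all other points, all of them at 0.78 or less.

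The profile most like that of *Ramp3* over the 4 libraries was also that of *Igfbp3*. Likeness was taken as the Euclidean distance between log2(FPKM + 0.5) values centred per gene, which was 0.588 for *Igfbp3*. Also near it were *Id2*, an inhibitor of basic helix-loop-helix factors (1.08), and *Igfbp6*, another binding protein of insulin-like growth factors (1.13). *Id2* rose from 1.32 and 3.71 FPKM in WT 1 and WT 2 to 22.0 and 19.8 in TG 1 and TG 2. *Igfbp6* rose from 2.22 and 3.71 FPKM to 21.8 and 31.6. All 3 were up-regulated by limma (adjusted p from 0.00038 to 0.0013) and were picked here for their likeness to *Ramp3*, so their shared direction carries no further weight. Without WT 1 no gene was up-regulated, and these 3 had log2 fold changes between 2.34 and 3.31 (adjusted p from 0.0203 to 0.0292); without WT 2, *Igfbp3* and *Id2* stayed up-regulated and *Igfbp6* did not (adjusted p = 0.0154).

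WT 2 held a low level of several of these transcripts that WT 1 lacked. With a minimum of 100 reads in TG 1 and in TG 2 and 0 reads in WT 1, there were 3 genes: *Ramp3*, *Xist* and *Igfbp3*. Their WT 2 level was 4.65%, 4.69% and 7.16% of the TG mean. For *Ramp3* the exact 95% interval on that share was 1.99% to 9.30%, from counting error only. The choice of genes with 0 reads in WT 1 fixed in advance that WT 2 could not be lower. The reverse choice, 0 reads in WT 2, was not examined. Some low transcripts had reads in WT 1 alone, such as *Pecam1* (12 reads) and *Esam* (11 reads). Carry-over of TG material into WT 2 was not tested, and the WT 2 values of *Ramp3*, its RAMP share and the read ratio of 35.4 all include these 8 reads. Without WT 2 the log2 fold change of *Ramp3* was 4.52 (SE 0.32) and stayed past both thresholds.

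**Figure D4:**
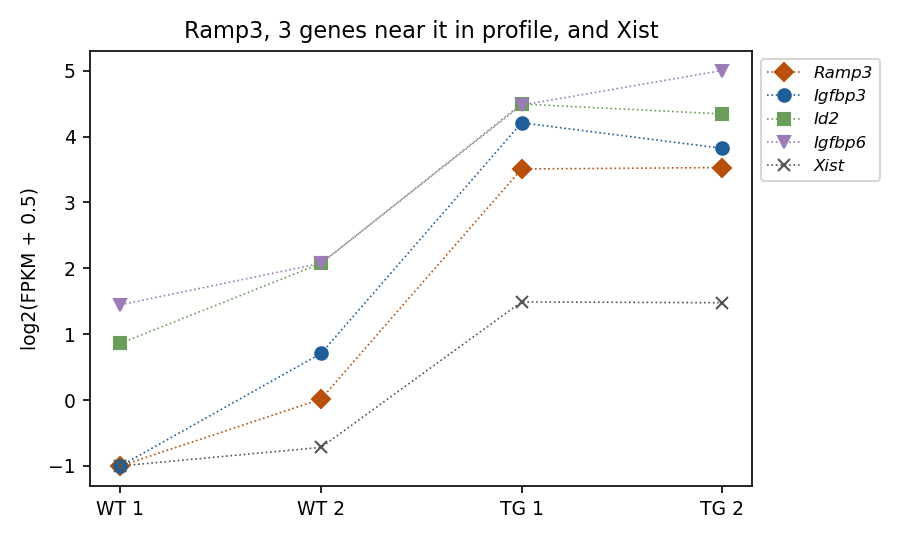
Level as log2(FPKM + 0.5) of *Ramp3*, of 3 genes near it in profile and of *Xist* in WT 1, WT 2, TG 1 and TG 2; dotted lines join the values of 1 gene. All 5 genes have both TG points above both WT points, and WT 2 above WT 1. The 3 genes near *Ramp3* were picked for this likeness, so their order carries no further weight.

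Chromosome 1, which the study examined for effects of the transgene, holds 2 of the 7 genes, 0.963 Mb apart: *Ackr3* at chr1:90203980-90216751 and *Ramp1* at chr1:91179822-91225196, both on the + strand. Neither had a called gene within 1 Mb. Around *Ramp1*, 15 genes were tested with a median log2 fold change of -0.035, and the nearest on each side were *Lrrfip1* (-0.05, SE 0.18) and *Ube2f* (-0.04, SE 0.23). Of these 15, 6 lay above 0 and 9 below. Around *Ackr3*, 4 genes were tested with a median of -0.18, and the nearest were *Agap1* (-0.47, SE 0.26) and *Cops8* (-0.04, SE 0.17). All 4 lay below 0. The other members were also without called neighbours within 1 Mb: *Ramp2* (chr11:101246028-101259546, + strand) with 56 tested genes (median 0.040), *Calcrl* (chr2:84330626-84425411, - strand) with 17 (-0.033), *Calcr* (chr6:3685680-3764714, - strand) with 8 (-0.53) and *Adm* (chr7:110627661-110629820, + strand) with 16 (0.0069). The genes above and below 0 numbered 30 and 26 around *Ramp2*, 6 and 11 around *Calcrl*, 2 and 6 around *Calcr* and 8 and 8 around *Adm*. *Krt19*, near *Ramp2*, was the only further called gene within 3 Mb of a member. The reads of *Ramp2* may be uncertain, since it overlaps *Vps25* on the same strand. *Adm* overlaps an antisense gene, *Gm28863*, which is not among the genes of the matrix.

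The remaining genes of the pathway were followed through 12 lists with 93 genes, of which 60 were tested. None was up-regulated or down-regulated by limma. An unadjusted limma p under 0.05 was reached by 19 of the 60, a larger share than the 19.6% of all genes. Voom, which models the whole reads, called *Pde4b* higher, as it did 1.08% of all genes, and *Rgs4* lower, as it did 1.31%. At an adjusted p under 0.05 with the same fold threshold, 2 were higher (*Prkar1b* and *Egln3*), where 1.99% of all genes were, and 2 were lower (*Adm2* and *Rgs4*), where 1.05% were. Both TG libraries were above both WT libraries in 20 of the 60 (30.2% of all genes) and below them in 15 (20.3% of all genes). The median log2 fold change of the 60 was -0.017, against 0.071 over all genes tested.

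**Figure D5:**
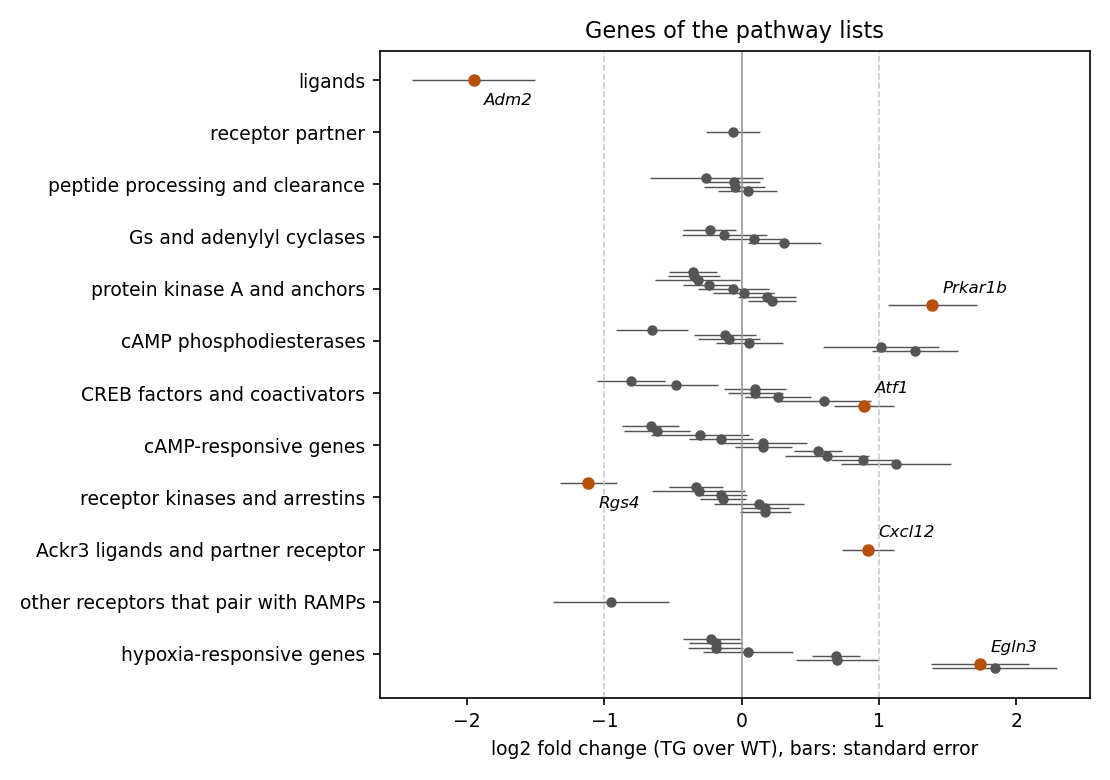
Log2 fold change (TG over WT, limma) of the 60 tested genes by pathway list, with bars for the standard error, dashed lines at a log2 fold change of 1 in size and orange for an adjusted p under 0.05. Most genes lie near 0, and *Adm2* (-1.95) and *Egln3* (1.74) are the farthest of those in orange.

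Among the ligands, *Adm2* encodes intermedin, a peptide that also acts through CALCRL with RAMPs. It was at 2.94 and 1.31 FPKM in WT and 0.219 and 0.0787 in TG, from 32, 22, 3 and 1 reads. Both TG libraries were below both WT libraries, the opposite order to *Ramp3*. The log2 fold change was -1.95 (SE 0.45, limma adjusted p = 0.0377; voom adjusted p = 0.125), which missed the threshold. The CGRP genes *Calca* and *Calcb* and the amylin gene *Iapp* had 0 reads in all libraries. *Crcp*, the intracellular component of CGRP and adrenomedullin receptors, ranged from 30.3 to 39.6 FPKM with overlapping genotypes. Of the enzymes that make or clear the peptides, *Pam*, which amidates adrenomedullin, ranged from 8.51 to 11.3 FPKM, and *Ide*, *Ece1* and *Mme* overlapped between the genotypes as well.

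Downstream of the receptor, *Gnas*, which encodes the Gs alpha subunit, ranged from 86.9 to 119 FPKM, and the main adenylyl cyclase genes were *Adcy6*, *Adcy3* and *Adcy7*, with log2 fold changes of -0.23, -0.13 and 0.31. Of the 9 tested genes of protein kinase A and its anchors, the abundant *Prkar1a*, *Prkaca*, *Pkig* and *Akap12* had log2 fold changes between -0.35 and 0.22. The regulatory subunit *Prkar1b* was at 0.758 and 0.817 FPKM in WT and 3.07 and 2.69 in TG (log2 fold change 1.39, SE 0.32, limma adjusted p = 0.0402). The phosphodiesterase *Pde4b*, which breaks down cAMP, was at 0.960 and 0.986 FPKM in WT 1 and WT 2 and 3.14 and 2.93 in TG 1 and TG 2 (1.26, SE 0.31, limma adjusted p = 0.0507; voom adjusted p = 0.00427). *Pde4d*, *Pde4a*, *Pde8a* and *Pde7a*, at higher levels, had log2 fold changes from -0.65 to 0.06. *Prkar1b*, *Pde4b*, *Rgs4*, *Egln3* and *Car9* are named after their values were seen.

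The cAMP-responsive transcription factors and their targets held no called gene. Of 7 CREB factors and coactivators, *Atf1* was at 7.66 and 9.96 FPKM in WT and 18.1 and 15.3 in TG (log2 fold change 0.89, SE 0.22, limma adjusted p = 0.0481), *Crebbp* had -0.80 (SE 0.25), and *Creb1* and *Crtc2* had 0.10 each. Of the 10 tested cAMP-responsive genes, 6 were higher in both TG libraries (30.2% of all genes) and 2 lower in both (20.3% of all genes). *Dusp1* (0.56, SE 0.17) and *Junb* (0.88, SE 0.23) had positive values, *Btg2* (-0.66, SE 0.21) a negative one, and *Nr4a1* lay at 0.16 (SE 0.21). The list's median was 0.16.

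Of 11 genes for receptor kinases, arrestins, regulators of G protein signalling and receptor recycling, 8 were tested, and *Grk3* had 0 reads in all libraries. The most abundant, *Grk2*, *Grk6*, *Arrb2* and *Slc9a3r1*, which encodes a scaffold that binds RAMP3, had log2 fold changes between -0.15 and 0.17. *Rgs4*, a regulator of G protein signalling, was at 16.1 and 18.0 FPKM in WT and 6.94 and 8.26 in TG (log2 fold change -1.12, SE 0.21, limma adjusted p = 0.0157; voom adjusted p = 0.000899). For *Ackr3*, the ligand *Cxcl12* was at 11.5 and 12.8 FPKM in WT and 23.5 and 23.3 in TG (0.92, SE 0.19, limma adjusted p = 0.0253), whereas *Cxcl11* and the partner receptor *Cxcr4* had 2 reads each, in WT 1 alone. Other receptors known to pair with RAMPs were scarce: 6 of 11 had 0 reads in all libraries, and the single one tested, *Gper1*, ranged from 0.345 FPKM in TG 2 to 2.15 in WT 1 (-0.95, SE 0.42).

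Hypoxia is a known inducer of *Adm*, so 8 hypoxia-responsive genes were set beside it, all of them tested and none called. The prolyl hydroxylase *Egln3* was at 0.376 and 0.378 FPKM in WT and 2.52 and 2.33 in TG (log2 fold change 1.74, SE 0.36, limma adjusted p = 0.0253). The glucose transporter *Slc2a1* had 0.69 (SE 0.17), while *Ndrg1*, *Egln1* and *Vegfa* lay between -0.22 and -0.19. *Car9* had 1.85 (SE 0.46, limma adjusted p = 0.0508). The list's median of 0.37 lay in a gap, with 4 genes from -0.22 to 0.05 and 4 from 0.69 to 1.85.

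Marker genes of other cells were mostly at or near 0 FPKM. The 11 marker lists held 65 genes, of which only part were tested. Only the mural and smooth muscle list and the bone and cartilage list held a called gene. *Cnn1* was lower (-1.78, SE 0.20, limma adjusted p = 0.0011), a call made for 0.469% of all genes. *Sox9* was higher (1.68, SE 0.26, limma adjusted p = 0.0067), a call made for 0.607%. All 4 tested mural genes had both TG values below both WT values (20.3% of all genes). *Acta2* was among them (-1.19, SE 0.22, limma adjusted p = 0.0139). The 2 tested bone and cartilage genes had them above (30.2%). Voom called 2 mural genes lower (1.31% of all genes) and 1 bone and cartilage gene higher (1.08%). The *Cnn1* call was lost without WT 1 or without WT 2 (-1.74 and -1.82, adjusted p = 0.0413 and 0.0446). The *Sox9* call was lost without any 1 of the 4 libraries (1.52 to 1.84, adjusted p from 0.0130 to 0.0859). The summed mural markers were at 4745 and 5471 FPKM in WT and 2028 and 2237 in TG, nearly all of it *Acta2* and *Cnn1*, and the bone and cartilage markers at 2.30 and 3.11 in WT and 7.65 and 10.5 in TG, most of it *Sox9*. The summed fibroblast markers were at 4910 and 4624 FPKM in WT and 3944 and 4223 in TG. The immune markers ranged from 5.12 to 12.3 (nearly all *Cd68*), the adipocyte markers from 1.76 to 4.77 and the keratinocyte markers from 1.92 to 3.15. The lymphatic markers stood at 1.10 and 1.37 FPKM in WT and 2.55 and 2.76 in TG, nearly all *Flt4*. The osteoclast, Schwann and melanocyte, and skeletal muscle sums were at 0.689 FPKM or less. The keratinocyte genes *Krt5* and *Krt14*, the leukocyte gene *Ptprc*, *Sox10*, *Adipoq* and *Myod1* were at 0 in every library, as were 3 of 4 osteoclast genes. The part of the fibroblast, mural and cartilage markers in the *Ramp3* level was not tested.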

How the data were processed

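RNA-seq covered 2 WT and 2 TG libraries. Per the methods, read pairs were mapped on mm10 by Rsubread and assigned to genes, and the authors turned these numbers into the deposited FPKM values; whether counting used strand is not given in the sources used here. Their test (DESeq) was not repeated.

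The 7 members and all lists were chosen with earlier results of these data known. The 11524 genes whose mean reached 0.5 FPKM were compared with limma 3.58.1 in R 4.3.3 (eBayes, trended variance) on log2(FPKM + 0.5), which understates changes of low genes, with Benjamini-Hochberg adjustment. An exact permutation test of 2 against 2 cannot give a p below 0.333. Whole reads were worked out from FPKM ratios for 15528 of 15530 genes above 0, to within 0.1 reads; for 1055 a common factor was set from the exonic length, so single genes may be off by a factor. Intervals are exact (scipy 1.17.1) and limits for 0 use 3 reads; both cover counting error only. Genes were placed with GENCODE M21 on GRCm38, with distances between gene bodies.

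The text names the members, *Xist*, called list genes, up to 4 of the most abundant others per list, the profiles nearest to *Ramp3* (4 by the rule, of which 3 are given and 1 is not reported here), and the nearest neighbours on chromosome 1; others were chosen after their values were seen. Alternatives were pseudocounts of 1 and 0.1, other filters, no variance trend, 2 scalings, a replicate block, leaving out each library, an adjusted p of 0.05, a log2 fold of 0.5 and voom on the reads. The fits were tested on simulated data.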

Additional observations from a re-analysis of the deposited data

How the results depend on the processing

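The log2 fold change of *Ramp3*, whose contrast chose the set, ranged from 3.28 (pseudocount of 1) to 5.77 (voom). It missed the threshold on the adjusted p, so that no member was called higher (0), when all 15530 genes above 0 were fitted (4.01, SE 0.40), with no variance trend (4.01, SE 0.34) and without WT 1. Leaving out 1 library at a time gave *Ramp3* values from 3.50 to 4.52 and 0 or 1 members called higher, and *Adm* values from -0.0022 to 0.78, and *Ackr3* values from -0.66 to -0.016. The value of *Adm* turned without WT 1 (-0.0022, SE 0.25), and *Adm* and *Ackr3* were called in no alternative. These leave-one-out fits assume that the lone library varies like the other genotype.

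No pathway gene was called in 12 of 15 alternatives. Voom called 1 higher and 1 lower, an adjusted p of 0.05 called 2 and 2, and leaving out 1 library gave 0 or 1 higher (*Car9*, without TG 2). Called neighbours rose from 1 to 2 at a distance of 3 Mb. The causes were not tested.

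Over all genes the 70 up-regulated and 54 down-regulated calls became 0 and 1 with all genes above 0, 3 and 6 with no variance trend, 125 and 151 with voom, 229 and 121 at an adjusted p of 0.05, 0 and 1 without WT 1 and 7 and 2 without WT 2. Upper-quartile scaling and quantile normalization gave 47 up-regulated genes each, with 53 and 55 down-regulated. The replicate number as a block gave 12 and 8, with *Ramp3* (4.01, SE 0.34) still among them. Deviations of same-numbered libraries correlated at r = -0.028, so no shared effect of the number was seen. With 2 libraries per genotype this cannot exclude a pairing. Depth limits *Ramp1*, *Ramp2* and *Calcrl*, with at most 26 reads in a library.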
